A study of Mus musculus with 4 samples.

Results

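The CCR4-NOT complex shortens the poly(A) tails of mRNAs, the step that commits most mRNAs to decay, and BTG4 is an adaptor that brings the complex to maternal mRNAs when the oocyte matures. The 10 genes described here are Btg4, Tob2, Cnot1, Cnot2, Cnot3, Cnot6, Cnot6l, Cnot7, Cnot8 and Cnot11, chosen by symbol, and all 10 were found among the 53677 gene symbols of the count files. The RNA was that of mouse germinal vesicle (GV) oocytes, which have not yet resumed meiosis, in 2 groups: a knockdown of the elongation factor gene Ell3 (Ell3 KD) and a control (Ctrl). Each group had 2 libraries of 5 pooled oocytes. All females had been primed 48 h earlier with PMSG (7.5 IU), a hormone that stimulates follicles, and the cDNA was made by Smart-seq2, which copies and amplifies polyadenylated RNA over its full length. The sources used here give neither the mouse strain and age, nor how the knockdown was made, nor what the Ctrl oocytes received, nor whether different animals stood behind the libraries of a group. The p-values and intervals therefore rest only on the spread among these 4 libraries, and that spread may be technical. In the edgeR tests the spread used for each gene is drawn in part from the other genes.

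In mammals CNOT1 is the scaffold of the complex, CNOT2 and CNOT3 form its NOT module, and CNOT10 and CNOT11 sit at the other end of the scaffold. Tails are removed by a pair of nucleases, a CAF1-type subunit that is either CNOT7 or CNOT8 and a CCR4-type subunit that is either CNOT6 or CNOT6L. Mouse oocytes store large amounts of mRNA while transcription is silent, and Btg4 mRNA is held untranslated until maturation, after which BTG4 is needed for the clearance of maternal mRNAs.

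Library totals were 89632815 and 65722415 counts in Ell3 KD and 45131278 and 48669267 in Ctrl, so the groups did not overlap in depth. Ell3 itself had 255 and 181 counts in the Ell3 KD libraries, against 371 and 483 in the Ctrl libraries, a log2 fold change of -1.66 ± 0.14 (SE; edgeR adjusted p = 6.04e-10). The exons of Ell3 share 65.6% of their length with Serinc4 on the same strand, and Serinc4 had 11 and 11 counts in Ell3 KD and 8 and 5 in Ctrl. The 10 oocyte markers examined, among them Zp3 and Gdf9, summed to between 24885 and 24921 CPM (counts scaled to a common library total with TMM factors) in Ell3 KD and between 25057 and 25560 CPM in Ctrl. Single markers went both ways. Dppa3 (1481 and 1492 CPM in Ell3 KD, 1042 and 1077 CPM in Ctrl), Ooep (761 and 749, 555 and 588) and Bmp15 were higher in both Ell3 KD libraries. Gdf9 (2030 and 2068, 2465 and 2255), Nlrp5 (1791 and 1793, 2122 and 2094), Zp1, Zp2 and Padi6 were lower in both. For Zp3 and Figla the groups overlapped. The 13 cumulus and granulosa markers summed to 218 and 217 CPM in Ell3 KD and 221 and 209.8 CPM in Ctrl, mostly through Esr2 (168 and 165 CPM in Ell3 KD, 164 and 156 CPM in Ctrl), and 7 of the 13 averaged under 1 CPM. Of these, Amh and Foxl2, which define granulosa cells, had no count in Ctrl and at most 0.102 CPM in Ell3 KD. Others were present in every library, among them Nr5a2 (22.3 and 22.5 CPM in Ell3 KD, 26.6 and 26.2 CPM in Ctrl), Cyp19a1 (16.2 and 17.9 CPM in Ell3 KD, 18.7 and 17.2 CPM in Ctrl) and Inha (2.18 and 2.47 CPM in Ell3 KD, 0.941 and 1.13 CPM in Ctrl). The 5 theca markers summed to at most 2.72 CPM in Ell3 KD and 3.70 CPM in Ctrl, with Insl3 at 0 in every library. The 6 blood markers summed to at most 1.43 CPM in Ell3 KD and 3.34 CPM in Ctrl, with the globin genes Hba-a1, Hbb-bs and Hbb-bt at 0 in every library. The theca and blood sums were thus lower in Ell3 KD. Other genes of both lists had counts in every library. These were Star (0.452 and 0.572 CPM in Ell3 KD, 0.744 and 0.871 CPM in Ctrl), Lhcgr (0.192 and 0.124, 0.175 and 0.0405), Alas2 (0.0677 and 0.0464, 0.175 and 0.365) and Ptprc (0.135 and 0.0773, 0.153 and 0.122), besides those named next. Cyp17a1 had counts in both Ctrl libraries only (0.0219 and 0.0203 CPM). Most of the theca sum was Cyp11a1 (1.91 and 2.03 CPM in Ell3 KD, 2.76 and 2.61 CPM in Ctrl) and most of the blood sum was Cd68 (1.23 and 1.13 CPM in Ell3 KD, 2.43 and 2.86 CPM in Ctrl). The part of these cell types in the results was not tested. Because each library pools oocytes, fewer cells of a type and less RNA per cell cannot be told apart, and a level is measured only against the rest of its library.

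Of the 10 genes, 3 rose in Ell3 KD (Btg4, Cnot7 and Cnot6l) and 1 fell (Cnot1), by at most 28.2%. The other 6 did not pass the test. The calls were the same 3 and 1 when all libraries were thinned to the smallest total. All 10 passed the low-count filter through counts in both groups. A gene was called at an edgeR adjusted p under 0.05 over all 17879 genes tested. Of all genes tested 42.9% were called, 21.1% higher and 21.8% lower. The share of 4 in 10 was therefore near the background. Among the 3886 genes of at least 50 CPM, a level that all of the 10 except Cnot6 reached, 59.7% were called. The median log2 fold change was -0.01 over the 10 genes and -0.0024 over all genes tested. In 7 of the 10 the groups did not overlap (both Ell3 KD libraries higher for 4 genes and lower for 3), where 70.7% of all genes tested had such a split, 35.0% higher and 35.7% lower. With an assumed biological coefficient of variation of 0.2 in place of the estimated 0.0421, none of the 10 was called by edgeR (11.0% of all genes tested were). The lowest unadjusted p among them was then 0.215.

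**Figure D1:**
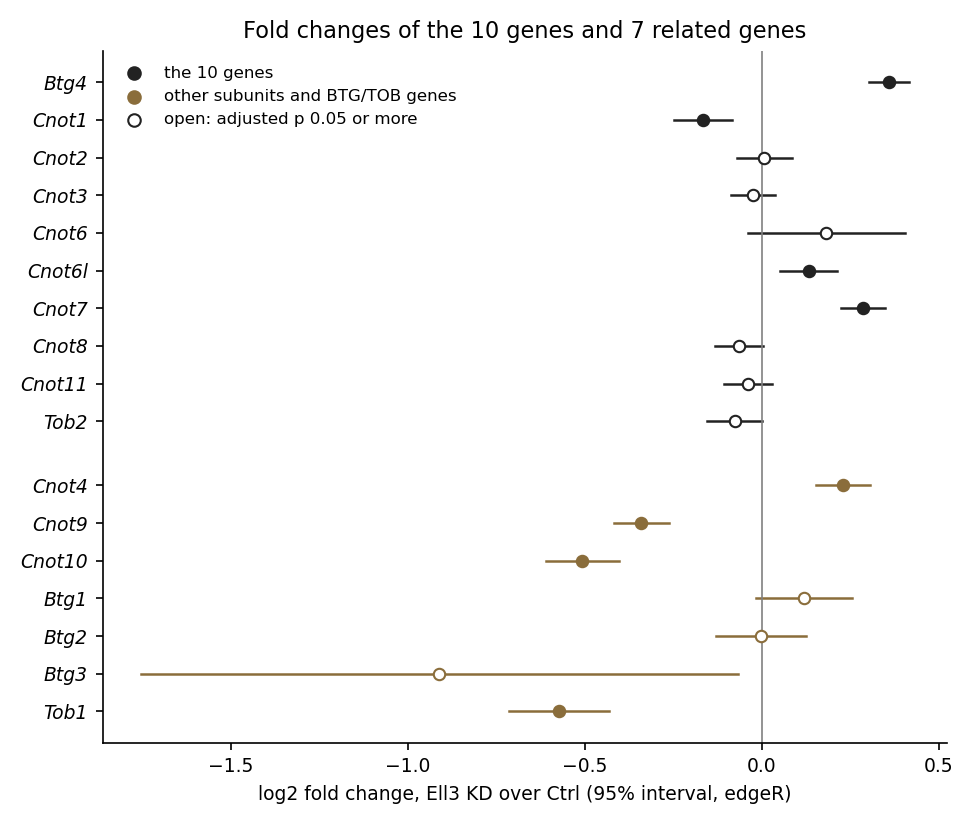
Log2 fold change, Ell3 KD over Ctrl, with its 95% interval from the edgeR fit, for the 10 genes (black) and for the 7 other CCR4-NOT, BTG and TOB genes listed (brown). Filled points passed the test. Btg4 (0.36) and Cnot7 (0.29) lie farthest to the right, and Cnot10 (-0.51) and Tob1 (-0.57) are the lowest filled points.

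Btg4 showed the largest change of the 10. It encodes a BTG/TOB-family protein that binds CNOT7 and CNOT8 and links them to mRNAs through the cap-binding protein eIF4E. Its counts were 106011 and 76746 in Ell3 KD and 42291 and 46092 in Ctrl. On the CPM scale it stood at 1197 and 1187 in the Ell3 KD libraries, against 925 and 934 in the Ctrl libraries. The libraries of a group differed far less than the groups did, with means of 1192 ± 6.81 CPM in Ell3 KD and 929.7 ± 5.91 CPM in Ctrl (SD, n = 2 each). The rise was 28.2%, a log2 fold change of 0.36 ± 0.03 (SE; 95% interval 0.30 to 0.41; edgeR adjusted p = 1.12e-10). Btg4 mRNA is short, with 1486 bases in its longest annotated transcript, and the 4331 genes tested with transcripts of up to 1583 bases had a median log2 fold change of 0.10, against -0.04 for the 4326 genes with transcripts of 4370 bases or more. After removal of the trend that fold changes follow with transcript length and GC content, Btg4 still rose (log2 fold change 0.25 ± 0.02; edgeR adjusted p = 3.43e-07).

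Btg4 lies on the plus strand of chromosome 9 from 51060901 to 51119875 (GRCm38, GENCODE M21), and none of its exons overlaps another annotated gene. No window of 50 bases of its longest transcript occurs in a transcript of another gene, so reads from that transcript could be told from those of its relatives. Its exons outside that transcript were not searched. Its annotated transcripts begin at several places: the longest, of 1486 bases and used for the levels per kb, begins at 51116001, and others begin upstream at 51105878 and 51060901. The 250 bases before the start in the RefSeq table, chr9:51115751-51116000 on GRCm38.p6, are shown because Btg4 moved most. They end at the base before that longest transcript and lie inside the gene as annotated from its most upstream start, and which start these oocytes use was not measured. The capitals mark E-boxes, the motif CANNTG read by basic helix-loop-helix factors. The motif is its own reverse complement and was therefore searched on both strands at once.

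Btg4 promoter: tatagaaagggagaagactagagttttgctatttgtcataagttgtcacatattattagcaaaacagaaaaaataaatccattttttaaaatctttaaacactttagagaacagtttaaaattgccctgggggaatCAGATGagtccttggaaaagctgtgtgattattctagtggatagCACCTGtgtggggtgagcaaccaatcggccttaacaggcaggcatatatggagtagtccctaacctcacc

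It holds 2 E-boxes. Among 32851 promoter windows of the same length in the RefSeq table, 31.8% held at least 2 and 66.2% at least 1, so the match is common and is given as a description only.

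The genes whose profile over the 4 libraries lay closest to that of Btg4 were Papd7, Agr3 and Dad1, out of 3702 others of at least 50 CPM once predicted, Rik and pseudogene symbols were left out. The measure was the Euclidean distance of log2 CPM centred on each gene's mean, and it was 0.00376, 0.0166 and 0.0170. Papd7, which encodes a non-canonical poly(A) polymerase, had 411 and 409 CPM in Ell3 KD and 319 and 321 CPM in Ctrl. With 4 libraries in 2 groups this likeness says little more than that the fold changes were alike (0.36, 0.35 and 0.35 on the log2 scale, against 0.36 for Btg4). With the length and GC trend removed they parted, at 0.36 for Papd7, 0.16 for Agr3 and 0.39 for Dad1, against 0.25 for Btg4.

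Tob2, the other BTG/TOB gene of the 10, encodes a protein that binds the CAF1 nucleases and the poly(A)-binding protein. It had 127 and 124 CPM in Ell3 KD, against 131 and 133 CPM in Ctrl. Both Ell3 KD values were lower, but no call was made (log2 fold change -0.08, 95% interval -0.15 to -0.0001; edgeR adjusted p = 0.0993). With the length and GC trend removed the value was 0.03 (edgeR adjusted p = 0.529). Tob2 lies on the minus strand of chromosome 15 from 81848272 to 81858796, and 4.34% of its exon length overlaps Gm49476 on the other strand.

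Of the CAF1-type nuclease genes, Cnot7 rose and Cnot8 was not called. Cnot7 was at 917 and 968 CPM in Ell3 KD, against 782 and 764 CPM in Ctrl. The lower Ell3 KD value lay above both Ctrl values. It rose by 21.9%, a log2 fold change of 0.29 ± 0.03 (SE; 95% interval 0.22 to 0.35; edgeR adjusted p = 3.22e-08), and by 0.30 ± 0.03 with the length and GC trend removed. Cnot8 was at 278 and 288 CPM in Ell3 KD, against 302 and 289.6 CPM in Ctrl. The second value of each group nearly coincided. The log2 fold change of Cnot8 was -0.06 ± 0.03 (95% interval -0.13 to 0.0043) with an edgeR adjusted p of 0.123, which misses the threshold. Without Ctrl replicate 2 it was called lower (-0.10; edgeR adjusted p = 0.0306). It was closer to 0 without Ctrl replicate 1 (-0.04; edgeR adjusted p = 0.504) and without Ell3 KD replicate 1 (-0.04; edgeR adjusted p = 0.579).

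Because CNOT7 and CNOT8 take the same place in the complex, their mRNAs were also set against each other per kb of transcript. Cnot7 stood at 1.78 and 1.82 times Cnot8 in the Ell3 KD libraries and at 1.40 and 1.42 times in the Ctrl libraries. The log2 ratio was 0.846 ± 0.0208 in Ell3 KD and 0.496 ± 0.0200 in Ctrl (SD, n = 2 each), a difference of 0.350 with no overlap between the groups. An exact two-sided permutation test over the 4 libraries gave p = 0.333 (0.666 adjusted over the 2 pairs of paralogs compared), the smallest p that 2 against 2 allows. The ratio in either group depends on the transcript length assumed, whereas the difference between the groups does not.

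Reads of these paralogs can be told apart. The coding sequences of Cnot7 (855 bases) and Cnot8 (876 bases) were 72.3% identical over 852 aligned bases in the GENCODE models, and their longest identical run was 20 bases, far shorter than the 150-base reads. The 60 bases around that run, bases 443 to 502 of each coding sequence, are shown to make this visible, with the 14 bases that differ in capitals.
Cnot7: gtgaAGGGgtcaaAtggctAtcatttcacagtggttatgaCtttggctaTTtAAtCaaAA
Cnot8: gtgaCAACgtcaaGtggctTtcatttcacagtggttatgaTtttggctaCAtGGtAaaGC

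Cnot8 does share sequence with Gm18860, where 1.28% of its windows of 150 bases and 9.85% of those of 50 bases were found. Gm18860 had 20.8 and 21.6 CPM in Ell3 KD and 23.2 and 21.8 CPM in Ctrl, a difference that was not called (edgeR adjusted p = 0.327). How the counting treated reads that fit both is not known from the sources used here. Cnot7 lies on the minus strand of chromosome 8 from 40492540 to 40515847, and 4.24% of its exon length overlaps Zdhhc2 on the other strand, which had at most 15 counts in any library. Of the windows of Cnot7, 0.16% of those of 150 bases were found in Zdhhc2. For windows of 50 bases 3.83% were found in Zdhhc2 or further genes. Cnot8 lies on the plus strand of chromosome 11 from 58104153 to 58118594, and its exons overlap no other annotated gene.

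**Figure D2:**
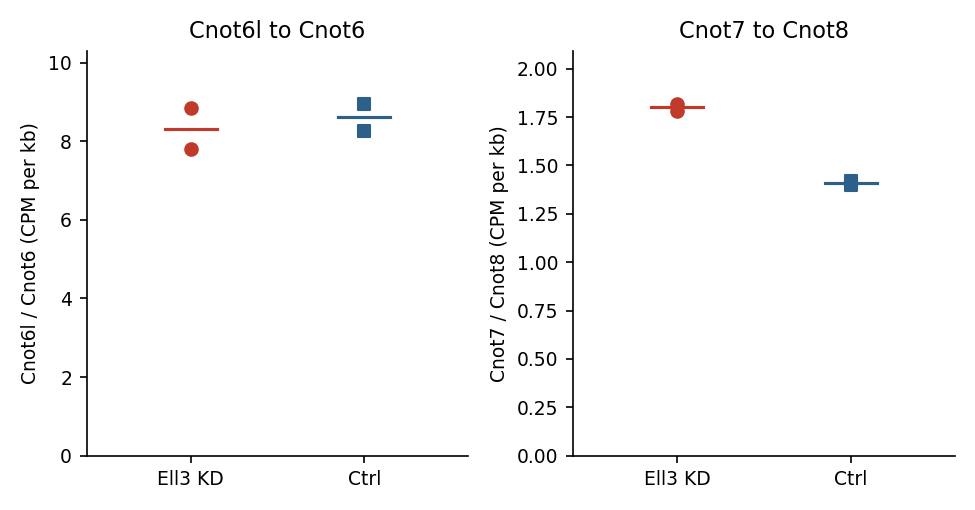
Ratio of paralog levels in CPM per kb of longest transcript, in the 2 Ell3 KD libraries (circles, left) and the 2 Ctrl libraries (squares, right), with horizontal lines at the group means. The Cnot7 to Cnot8 ratio is 1.78 and 1.82 in Ell3 KD and 1.40 and 1.42 in Ctrl, while the Cnot6l to Cnot6 ratio overlaps between the groups.

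Of the CCR4-type nuclease genes, Cnot6l had the higher level per length in every library. It encodes the CCR4 subunit that mouse oocytes use in the clearance of maternal mRNAs during maturation. Cnot6l was at 119 and 123 CPM in Ell3 KD, against 108 and 112 CPM in Ctrl. The groups did not overlap, and it rose by 9.59%, a log2 fold change of 0.13 ± 0.04 (SE; 95% interval 0.05 to 0.21; edgeR adjusted p = 0.00766). This call was lost without Ctrl replicate 1 (0.11; edgeR adjusted p = 0.0555) and without Ell3 KD replicate 2 (0.12; edgeR adjusted p = 0.0915).

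Cnot6, its paralog, had the fewest reads of the 10, with 798 and 680 counts in Ell3 KD and 402 and 413 in Ctrl. This was 9.01 and 10.5 CPM in Ell3 KD and 8.80 and 8.37 CPM in Ctrl. The Ell3 KD values lay above the Ctrl values but differed from each other by more than the lower of them did from Ctrl. The log2 fold change of 0.18 ± 0.11 was not called (edgeR adjusted p = 0.179), and its 95% interval from -0.04 to 0.40 was the widest of the 10. Per kb, Cnot6l stood at 8.85 and 7.80 times Cnot6 in Ell3 KD and at 8.26 and 8.96 times in Ctrl. The log2 ratios, 3.06 ± 0.128 in Ell3 KD and 3.10 ± 0.0834 in Ctrl (SD, n = 2 each), differed by less than the spread within the groups (difference -0.049; exact two-sided permutation p = 0.667, also 0.667 after adjustment over the 2 pairs). The coding sequences were 73.6% identical over 1648 aligned bases, again with a longest identical run of 20 bases. The 60 bases around it, bases 1274 to 1333 of Cnot6l and 1280 to 1339 of Cnot6, are shown for the same reason, with the 13 bases that differ in capitals.
Cnot6l: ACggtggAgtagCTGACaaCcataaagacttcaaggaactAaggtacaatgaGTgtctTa
Cnot6: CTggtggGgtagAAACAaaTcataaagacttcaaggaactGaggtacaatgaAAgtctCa

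The exons of neither Cnot6l (chromosome 5, minus strand, 96070333 to 96164171) nor Cnot6 (chromosome 11, minus strand, 49671503 to 49712723) overlap another annotated gene. No window of 50 bases of the longest transcript of either occurs in a transcript of another gene.

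The scaffold gene Cnot1 fell. It was at 113 and 115 CPM in Ell3 KD, against 132 and 124 CPM in Ctrl. Both Ell3 KD values lay below the lower Ctrl value. The fall was 0.17 ± 0.04 on the log2 scale (SE; 95% interval -0.25 to -0.08; edgeR adjusted p = 0.0015), or 10.9%, and the value was -0.12 with the length and GC trend removed (edgeR adjusted p = 0.0205). Cnot1 lies on the minus strand of chromosome 8 from 95719451 to 95807464. Of its windows of 150 bases 6.31% also occur in Gm6158, which had at most 14 counts in any library. Of those of 50 bases 10% occur in Gm6158 or 4930513N10Rik, which overlaps 0.769% of its exon length on the other strand. The latter gene had 398 and 393 counts in Ell3 KD and 239 and 260 in Ctrl, and was not called (edgeR adjusted p = 0.997).

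Cnot2 and Cnot3, which encode the NOT module, did not pass the test. Cnot2 was at 145 and 155 CPM in Ell3 KD, against 150.5 and 149 CPM in Ctrl. Its Ell3 KD values lay on both sides of the Ctrl values. Its log2 fold change was 0.0071, with a 95% interval from -0.07 to 0.09 (edgeR adjusted p = 0.902). Cnot3 encodes the subunit that pairs with CNOT2 through its NOT box. It was at 468 and 465 CPM in Ell3 KD, against 482 and 468 CPM in Ctrl. The groups met at 468 CPM. Its log2 fold change was -0.03, with a 95% interval from -0.09 to 0.04 (edgeR adjusted p = 0.523). Opposite-strand genes overlap 5.69% of the exon length of Cnot2 (5330438D12Rik) and 6.07% of that of Cnot3 (Leng1). Of these, 5330438D12Rik was not called and Leng1, with 12.6 and 12.5 CPM in Ell3 KD and 9.48 and 9.56 CPM in Ctrl, rose by 0.40 ± 0.09 (edgeR adjusted p = 0.00113). Cnot2 lies on the minus strand of chromosome 10 from 116485161 to 116581511, and Cnot3 on the plus strand of chromosome 7 from 3645268 to 3661109.

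Cnot11 encodes the subunit that joins CNOT10 at the start of the scaffold. It was at 279 and 275 CPM in Ell3 KD, against 279 and 291 CPM in Ctrl. The groups overlapped, and the log2 fold change of -0.04 (95% interval -0.11 to 0.03) was not called (edgeR adjusted p = 0.353). Cnot11 lies on the plus strand of chromosome 1 from 39534992 to 39546889, with no other annotated gene over its exons. For Cnot2, Cnot3, Cnot8, Cnot11 and Tob2 the 95% interval lay within 0.16 of 0 on the log2 scale either way.

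**Figure D3:**
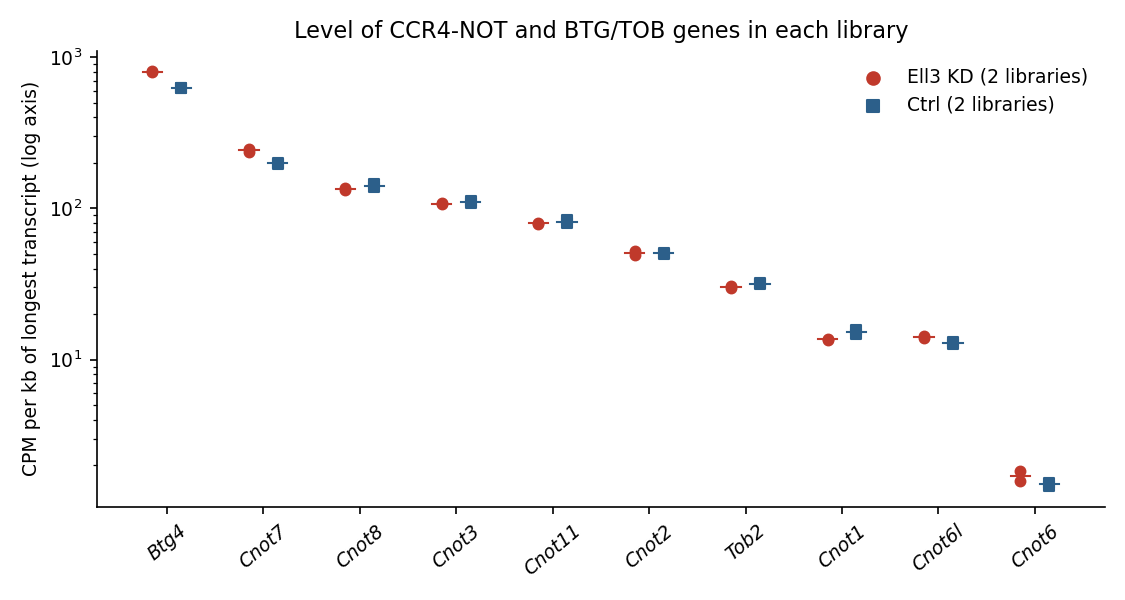
Level of each of the 10 genes in CPM per kb of longest annotated transcript (log axis) in the 2 Ell3 KD libraries (circles, left of each gene) and the 2 Ctrl libraries (squares, right), with short lines at the group means. Btg4 stands at 799 to 805 in Ell3 KD and 623 to 628 in Ctrl, and Cnot6 lies under 2 in every library.

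Per length, the mRNAs of the complex spanned a wide range. Levels in this paragraph are CPM per kb of the longest annotated transcript. Btg4 was the highest of the 10, at 802 ± 4.58 in Ell3 KD and 626 ± 3.98 in Ctrl (SD, n = 2 each, as for the levels that follow), above 99.6% of the 17308 genes tested that had a gene model. Cnot7 followed at 242 ± 9.27 in Ell3 KD and 199 ± 3.32 in Ctrl. The CAF1 paralog Cnot8 came next, at 135 ± 3.21 in Ell3 KD and 141 ± 4.31 in Ctrl. Below these CAF1 genes came Cnot3 at 108 ± 0.560 in Ell3 KD and 109.6 ± 2.24 in Ctrl, and Cnot11 at 79.6 ± 0.922 in Ell3 KD and 81.8 ± 2.61 in Ctrl. Cnot2 stood at 50.9 ± 2.40 in Ell3 KD and 50.6 ± 0.465 in Ctrl, and Tob2 at 30.2 ± 0.583 in Ell3 KD and 31.8 ± 0.445 in Ctrl. In this order down to Tob2 the 4 values of each gene lay above the 4 values of the next.

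The scaffold gene Cnot1 and the nuclease gene Cnot6l were close on this scale and changed places. Cnot1 was at 13.5 and 13.7 CPM per kb in Ell3 KD and 15.8 and 14.7 in Ctrl. Cnot6l was at 13.9 and 14.3 CPM per kb in Ell3 KD and 12.7 and 13.1 in Ctrl. Within each group they did not overlap, but over the 4 libraries their ranges did. Cnot6 was last, at 1.57 and 1.83 CPM per kb in Ell3 KD and 1.53 and 1.46 in Ctrl, above 41.6% of the genes tested. Which transcript these oocytes use was not measured. With the length of all exons together in place of the longest transcript, Cnot11 stood above Cnot3 and Cnot6l above Cnot1, and the other places in the order did not change. Cnot6l then averaged 11.2 and Cnot1 7.05 CPM per kb over the 4 libraries. Their change of places between the groups was seen with the longest transcripts only.

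Summed by role on the same scale, the CAF1 nuclease genes (Cnot7 and Cnot8) reached 369 and 386 CPM per kb in Ell3 KD and 345 and 335 in Ctrl. The CCR4 nuclease genes (Cnot6 and Cnot6l) reached 15.5 and 16.1 in Ell3 KD and 14.2 and 14.5 in Ctrl. The scaffold and NOT module genes (Cnot1, Cnot2 and Cnot3) reached 171 and 174 in Ell3 KD and 178 and 173 in Ctrl. The sums of both nuclease types lay higher in both Ell3 KD libraries, a split that 35.0% of all genes tested showed, and the scaffold and NOT module sums overlapped. No test was made on the sums, and their members did not move together: the CAF1 sum followed Cnot7 while Cnot8 was lower in both Ell3 KD libraries, Cnot6 was not called, and Cnot1 fell within the overlapping sum. Btg4 made up 54.8% and 53.8% of the summed level of the 10 genes in Ell3 KD and 49.0% and 49.6% in Ctrl. These shares depend on the transcript length assumed. With the length of all exons together, Btg4 averaged 415 in place of 714 CPM per kb over the 4 libraries, and the other genes were lower too.

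Several subunits and relatives lie outside the 10. Of the 7 other CCR4-NOT, BTG and TOB genes listed, 1 rose and 3 fell, a share of 57.1% called where 42.9% of all genes tested were. The median log2 fold change of the 7, of which 3 were not called, was -0.34, against -0.0024 over all genes tested. Cnot10, which encodes the partner of CNOT11, had 38.3 and 39.7 CPM in Ell3 KD, against 54.9 and 55.9 CPM in Ctrl. It fell by 0.51 ± 0.05 on the log2 scale (SE; edgeR adjusted p = 1.34e-08), while Cnot11 did not pass the test. Cnot9 encodes the subunit that binds silencing factors such as the TNRC6 proteins. It had 122 and 125 CPM in Ell3 KD, against 159.9 and 153 CPM in Ctrl, and fell by 0.34 ± 0.04 (edgeR adjusted p = 6.8e-08). Tob1, the paralog of Tob2, had 19.2 and 18.5 CPM in Ell3 KD, against 26.8 and 29.2 CPM in Ctrl, and fell by 0.57 ± 0.07 (edgeR adjusted p = 2.38e-07). Cnot4, which encodes a ubiquitin ligase loosely bound to the complex in mammals, had 147 and 149 CPM in Ell3 KD, against 125 and 128 CPM in Ctrl, and rose by 0.23 ± 0.04 (edgeR adjusted p = 1.66e-05). Btg1, Btg2 and Btg3, relatives of Btg4, were not called. Btg3 had only 34 and 33 counts in Ell3 KD and 47 and 32 in Ctrl, and its interval was the widest drawn (-1.75 to -0.07; edgeR adjusted p = 0.0745). Whether the changes of these genes differ from those of the 10 was not tested.

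Beyond the complex, 5 further lists of tail-length and decay genes were counted. With the 7 genes above they held 73 genes, of which 71 were tested, and 13 rose and 21 fell (47.9%, where 42.9% of all genes tested were called), with a median log2 fold change of -0.03. Under the assumed coefficient of variation of 0.2 these counts were 0 and 1. Each list held genes on both sides of 50 CPM, and 59.7% of the genes tested of at least that level were called.

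Among adaptors that bring CCR4-NOT to mRNAs, 3 of 15 tested rose and 4 fell (46.7% called, against 42.9% of all genes tested). Tnrc6b and Tnrc6c, scaffold genes of microRNA silencing, rose by 0.41 ± 0.04 and 0.37 ± 0.06 on the log2 scale (highest edgeR adjusted p = 3.24e-05). Tnrc6b had 183 and 176 CPM in Ell3 KD, against 130.5 and 139 CPM in Ctrl. Ythdf2, which encodes a reader of m6A that binds CNOT1, had 147 and 152 CPM in Ell3 KD, against 199 and 191 CPM in Ctrl, a fall of 0.38 ± 0.04 (edgeR adjusted p = 7.1e-09).

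Of 8 other deadenylase and related nuclease genes, 1 rose and 3 fell (50% called, against 42.9% of all genes tested). The 2 partners of the PAN2-PAN3 deadenylase went opposite ways: the catalytic Pan2 had 55.2 and 52.7 CPM in Ell3 KD, against 65.5 and 63.5 CPM in Ctrl, a fall of 0.26 ± 0.05 (edgeR adjusted p = 9.22e-05), or of 0.16 with the length and GC trend removed (edgeR adjusted p = 0.00689). Its adaptor Pan3 had 333 and 315 CPM in Ell3 KD, against 307 and 286 CPM in Ctrl, a rise of 0.13 ± 0.04 (edgeR adjusted p = 0.00527). The Pan3 call was lost without Ctrl replicate 2 (0.08; edgeR adjusted p = 0.0995) and without Ell3 KD replicate 1 (0.09; edgeR adjusted p = 0.117). The poly(A)-specific ribonuclease gene Parn and the mitochondrial nuclease gene Pde12 fell by 0.25 ± 0.05 and 0.33 ± 0.07 (highest edgeR adjusted p = 0.00036). Angel2, at 641 and 664 CPM in Ell3 KD and 687 and 684 CPM in Ctrl, was not called by edgeR (adjusted p = 0.0513) but was called lower by limma-voom (-0.07; adjusted p = 0.0178).

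Of 10 genes for poly(A)-binding proteins, their partners and terminal uridylyltransferases, 3 rose and 2 fell (50% called, against 42.9% of all genes tested). Those that rose included Pabpn1l, a poly(A)-binding protein gene of oocytes and embryos whose product is reported to work with BTG4 in mice. Pabpn1l had 737 and 711 CPM in Ell3 KD, against 614 and 602 CPM in Ctrl, a rise of 0.25 ± 0.03 (edgeR adjusted p = 1.85e-07). Paip1 and Paip2, which encode an activating and an inhibiting partner of the cytoplasmic poly(A)-binding protein, rose by 0.25 ± 0.03 and 0.16 ± 0.03 (highest edgeR adjusted p = 1.41e-05). With the length and GC trend removed Paip2 rose by only 0.06 (edgeR adjusted p = 0.0293). The 2 that fell were Pabpc1l, by 0.13 ± 0.04 (edgeR adjusted p = 0.0113), and Zcchc11, by 1.12 ± 0.42 (edgeR adjusted p = 0.0334). Zcchc11 had few counts, 37 and 20 in Ell3 KD and 37 and 39 in Ctrl.

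Of 19 decapping and decay genes, 4 rose and 7 fell, with a median of -0.10. The share called was 57.9%, against 42.9% of all genes tested and 59.7% of those of at least 50 CPM. Lsm3, of the LSM ring on the end of deadenylated mRNAs, had 319 and 322 CPM in Ell3 KD, against 234 and 233 CPM in Ctrl, a rise of 0.46 ± 0.03 (edgeR adjusted p = 2.86e-11). The decapping enzyme gene Dcp2 rose by 0.27 ± 0.05 (edgeR adjusted p = 3.59e-05). Patl2, an oocyte repressor gene of the PAT1 family, had 159 and 161 CPM in Ell3 KD, against 217 and 216 CPM in Ctrl, a fall of 0.44 ± 0.03 (edgeR adjusted p = 2.37e-10). Eif4enif1, which encodes the eIF4E transporter of repressed mRNPs, fell by 0.10 ± 0.03 (edgeR adjusted p = 0.00761), a call lost without Ell3 KD replicate 1 (-0.08; edgeR adjusted p = 0.126) and with the length and GC trend removed (-0.02; edgeR adjusted p = 0.478). Dcp1a, at 307 and 309.6 CPM in Ell3 KD and 329 and 312 CPM in Ctrl, was not called (edgeR adjusted p = 0.179) except, as lower, without Ctrl replicate 2 (-0.10; edgeR adjusted p = 0.0313).

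Of 12 genes of cytoplasmic polyadenylation, which lengthens the tails that CCR4-NOT shortens, 1 rose and 2 fell. The share called was 25%, against 42.9% of all genes tested. Cpeb1, whose product binds the polyadenylation element of dormant mRNAs, had 936 and 964 CPM in Ell3 KD, against 1046 and 1037 CPM in Ctrl, a fall of 0.13 ± 0.03 (edgeR adjusted p = 0.00041), or of 0.09 with the length and GC trend removed (edgeR adjusted p = 0.00723). Fip1l1 fell by 0.16 ± 0.03 (edgeR adjusted p = 0.000138). The scaffold gene Sympk rose by 0.31 ± 0.05 (edgeR adjusted p = 3.93e-06).

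**Figure D4:**
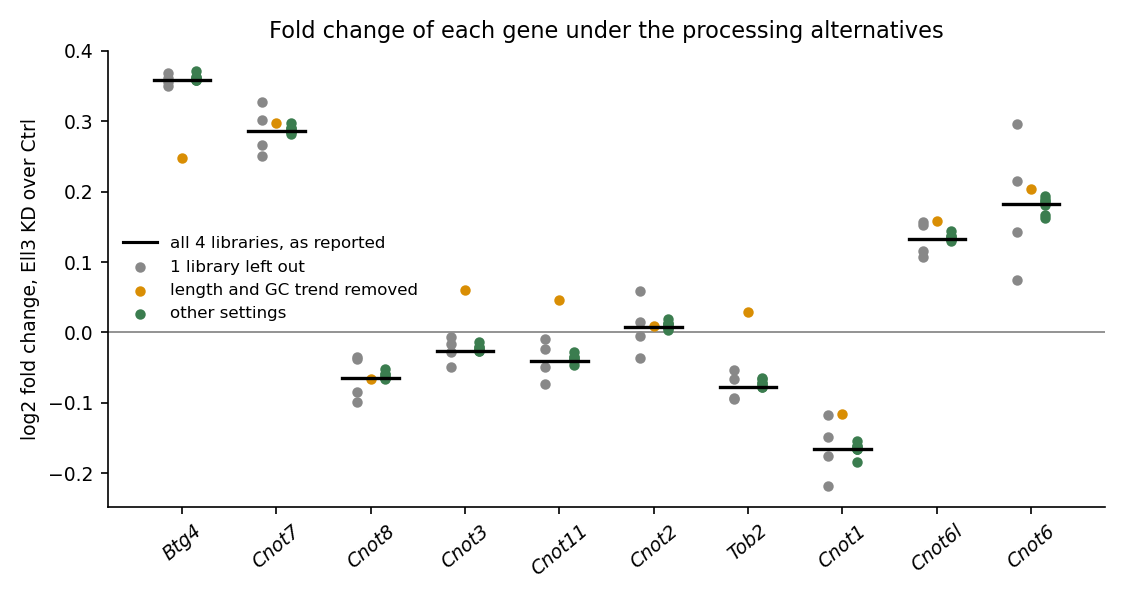
Log2 fold change, Ell3 KD over Ctrl, of the 10 genes with all 4 libraries (black lines), with 1 library left out (grey), after removal of the length and GC trend (orange) and under the other settings (green). Btg4 ranges from 0.25 to 0.37 and Cnot7 from 0.25 to 0.33, while Cnot3, Cnot11 and Tob2 lie above 0 only at the orange point and Cnot2 falls on both sides of 0.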

How the data were processed

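The deposited values are raw counts per gene symbol, 1 table for each of the 2 Ell3 KD and 2 Ctrl libraries. The submitters' processing notes name HISAT2 2.2.1.0, featureCounts, FastQC 0.11.5 and the mm10 build. Annotation, strand setting and treatment of reads that fit several genes are not given in the sources used here. Per the labels' protocols, cDNA was amplified for 16 cycles and sequenced as 150-base paired reads.

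The test across genes was that of edgeR 4.0.16 in R 4.3.3 (filterByExpr, TMM, quasi-likelihood, two-sided, Benjamini-Hochberg over 17879 genes) on all 4 libraries. CPM are scaled by TMM factors. Standard errors are log2 fold changes over the square root of F, and 95% intervals use the t quantile at 26.3 degrees of freedom. Chi-square tests within groups gave 4.17 (Ell3 KD) and 4.08 (Ctrl) per degree of freedom, so libraries were kept apart. A count of 0 (limit of 3 counts) allows at most 0.0665 CPM, for counting error only. Alternatives included DESeq2 1.42.0 and limma-voom (limma 3.58.1).

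Transcript lengths, places and coding sequences came from GENCODE M21 on GRCm38, which is mm10 (17308 of the genes tested matched, 96.8%), and the promoter from RefSeq on GRCm38.p6. The 10 genes, the 6 lists and the alternatives were chosen with earlier results of these data known. The text names the 10 genes, Ell3, the 2 most abundant and up to 3 called genes of smallest p from each list, and the 3 genes most like Btg4. Btg1 to Btg3, Pabpc1l and Zcchc11 are named besides, with some of the genes that share exons or sequence with the 10 genes or Ell3. Such sharing is not described for the other listed genes, several of which also overlap annotated genes.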

Additional observations from a re-analysis of the deposited data

How the results depend on the processing

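Ell3, Btg4, Cnot7 and Cnot1 kept their direction and their call with the size factors of DESeq2 in edgeR, with DESeq2, with limma-voom, without the low-count filter, with counts thinned to the smallest total, with the length and GC trend removed, with the replicate number as a block and without each library in turn. When the coefficient of variation was set to 0.2, 0 of the 10 genes were called higher and 0 lower, as were 0 and 1 of the 73 listed genes and 861 and 1103 of all genes tested. With 1 library left out, the 10 genes gave 2 to 3 called higher and 1 to 2 lower (Cnot8 joined Cnot1 without Ctrl replicate 2), and the library left alone in its group is then assumed to vary like the others. Cnot2 lay between -0.0367 and 0.0583 with 1 library left out, and was negative without Ctrl replicate 2 (-0.0052) and without Ell3 KD replicate 2 (-0.0367). With the length and GC trend removed, Cnot3 (0.0608), Cnot11 (0.0466), Tob2 (0.0285) and Dcp1a (0.0186) turned positive, none of them called with or without it. The difference in the Cnot6l to Cnot6 log2 ratio lay between -0.140 and 0.041 with 1 library left out, reversed at 0.041 without Ell3 KD replicate 2 and at 0.010 without Ctrl replicate 2. The difference for Cnot7 to Cnot8 lay between 0.335 and 0.365. With the length of all exons together, the log2 ratio of Cnot7 to Cnot8 was 0.592 in Ell3 KD and 0.243 in Ctrl, since the lengths divided by differ. Except where values are given here or in the report, the causes were not tested.

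Replicate numbers were shared by the titles of both groups, but the deviations of the replicate 1 libraries from their group means correlated at only 0.0294 over 17879 genes, and 2 pairs cannot show a pairing. With the replicate block, 3 of the 10 genes were called higher and 1 lower, as without it, 15 and 23 of the listed genes and 3894 and 3987 of all genes tested. Of the genes named, Angel2 was called lower with the block (-0.07; edgeR adjusted p = 0.0150), as it was with limma-voom without it.

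Shifts of all mRNAs together, poly(A) tail lengths and protein levels were not measured, and the groups did not overlap in depth.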
